A study of Mus musculus with 24 samples.

Results

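Chemokines are small secreted proteins that steer migrating cells, and chemokine receptors are the G protein-coupled receptors on those cells that read them. The genes described here were chosen by name: every probe whose gene symbol is a numbered Ccl, Cxcl, Ccr or Cxcr gene, or Cx3cl1, Cx3cr1, Xcl1 or Xcr1. On the arrays used, 22 probes met this rule and stood for 19 genes of the 9834 genes that had a single symbol. Of the 19, 16 encode chemokines and 3 encode receptors.

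The mice lacked Nur77 (genotype Nur77-/-), the orphan nuclear receptor encoded by Nr4a1, and were compared with wild-type mice (Nur77+/+). The sources used here do not name strain, age, sex, the way the allele was made or any treatment. RNA of 6 organs (lung, spleen, testis, skeletal muscle, heart and brown adipose tissue) was hybridised on two-colour cDNA arrays, with a pool of mutant mice in one dye and a pool of wild-type mice in the other. The design text names 7 mice in each pool, whereas the labelling protocol speaks of 6 control animals. Each organ had 4 arrays with dyes exchanged. Replicates 1 and 2 carried the mutant pool in Cy5, and replicates 3 and 4 carried it in Cy3. Below, Cy5 and Cy3 arrays are named by the dye of the mutant pool. As the arrays repeat 1 comparison between pools, p-values weigh a difference against hybridisation error, and the spread from animal to animal does not enter them. Values are log2 ratios, read as mutant over wild type. The files do not state that direction. The deleted gene, given below, lay below 0 on arrays of both dyes. Since the values are ratios, the level of a chemokine in an organ is not known, and a marker gene shows a tissue only where its content differed between the pools. A lower ratio in a whole organ cannot tell fewer cells of a type from less RNA per cell.

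Chemokines fall into a few working classes. Constitutive or homeostatic chemokines place lymphocytes and dendritic cells in tissues and lymphoid organs, and Ccl21a with its receptor Ccr7 is the classic axis that brings T cells and mature dendritic cells into lymph nodes. Inflammatory chemokines such as Ccl5, Ccl8 and Ccl12 are induced by cytokines and through NF-kB, and attract monocytes and activated lymphocytes. Nur77 itself is an immediate early transcription factor of T cells and macrophages that binds the DNA element called NBRE.

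The arrays held between 13396 and 19455 values each, and their medians over all rows lay between -0.81 and 0.69. Of the 456 possible values of the 19 genes (24 arrays), 392 were measured, or 86.0% against 82.9% over all rows. The spread between hybridisations differed by organ, with a median residual SD of 0.40 in heart and 0.41 in brown adipose tissue against 0.91 in skeletal muscle and 0.94 in spleen. Nr4a1 was below 0 on 11 of 11 Cy5 arrays and on 10 of the 11 Cy3 arrays that measured it, and passed the test in skeletal muscle only (-1.73 ± 0.31, limma adjusted p = 0.0022). Whether its probe lies within the part that was disrupted is unknown. One heart array, replicate 2, has a wild-type channel labelled as skeletal muscle. On it the median of cardiac minus that of skeletal muscle markers was -0.06, against -0.40, -0.09 and -0.15 on the other heart arrays. The heart ratios of Ccl8, Ccl17 and Ccl9 are given with and without it.

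**Figure D1:**
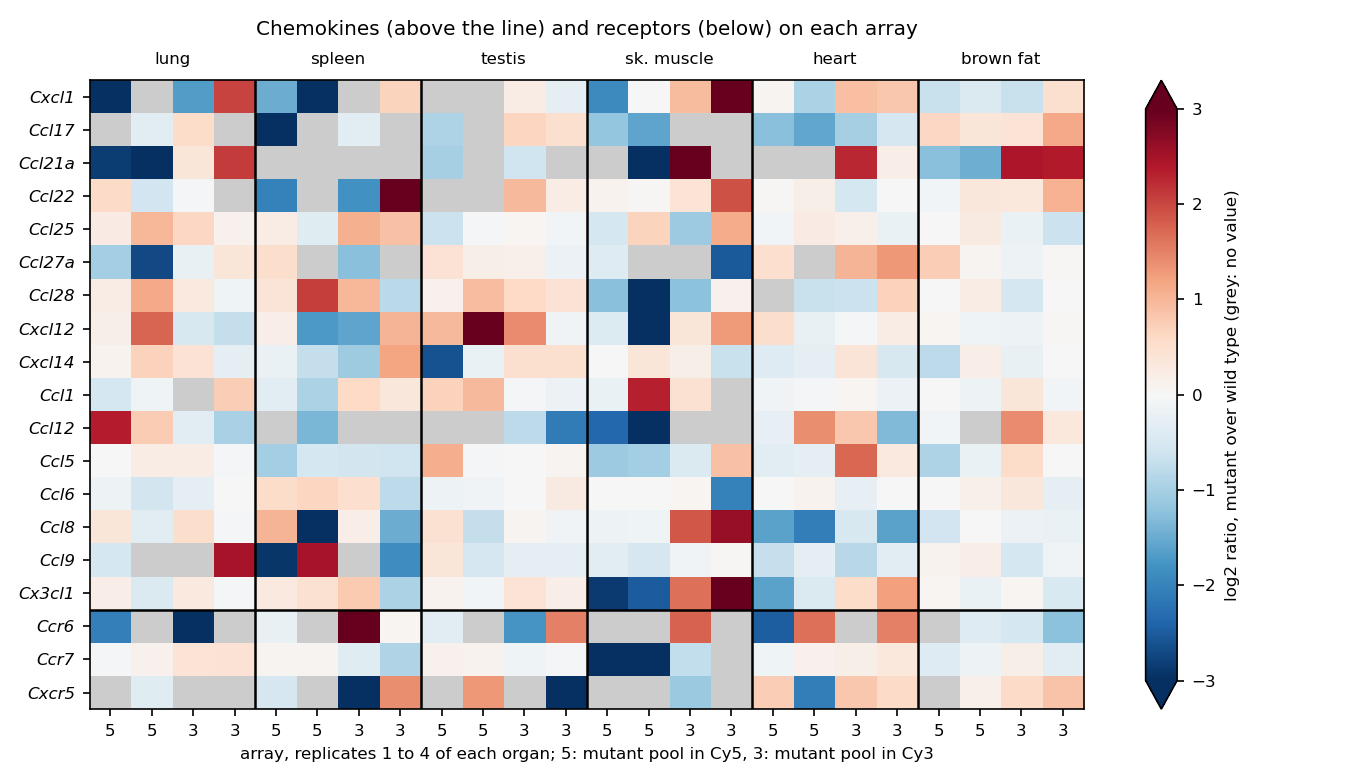
Heat map of the log2 ratio of mutant over wild type for the 19 genes (rows, chemokines above the horizontal line and receptors below) on each of the 24 arrays (columns, grouped by organ, with the dye of the mutant pool as 5 for Cy5 and 3 for Cy3). Blue is lower and red higher in the mutant pool, colours saturate at -3 and 3, and grey marks arrays without a value. In skeletal muscle Ccr7 is dark blue where the mutant pool carried Cy5 (-3.26 and -4.72), whereas rows such as Cxcl1 and Ccl21a change colour between the dyes.

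Of the 19 genes, the receptor Ccr7 was the one called different between the pools. It was 7.19-fold lower in skeletal muscle of the mutant pool and near 0 in the other 5 organs. The muscle mean was -3.99 on its Cy5 arrays and -0.74 on its only Cy3 array, so the size depends on how the dye is modelled. Among the chemokines, Ccl8 and Ccl17 were lower on every heart array and were called there only with array weights.

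An organ counted as testable for a gene with values on 3 or 4 of its arrays, and on at least 1 array of each dye orientation. This held for 94 of the 114 pairs of gene and organ, from 13 genes in skeletal muscle to all 19 in brown adipose tissue, and for 10 genes in every organ. With limma's moderated test, adjusted by the Benjamini-Hochberg method over all rows of the organ at a threshold of 0.05, 1 of the 94 pairs passed. That pair was Ccr7 in skeletal muscle, 1 of 13 genes tested there, where 5.59% of all rows passed. In the other organs none passed, among 15 genes in lung (all rows, 0.0809%), 15 in spleen (1.53%), 14 in testis (0%), 18 in heart (0%) and 19 in brown adipose tissue (0%). Without adjustment, limma's p was under 0.05 for 4 of these genes in skeletal muscle, 2 in heart, 1 in lung, 1 in testis and none in spleen or brown adipose tissue. The shares of all rows at that unadjusted threshold were 20.2% in skeletal muscle, 2.05% in heart, 6.63% in lung, 3.63% in testis, 15.4% in spleen and 0.67% in brown adipose tissue. With arrays weighted by their quality in limma, 2 genes passed in heart, Ccl8 and Ccl17 (all rows, 0.296%), and Ccr7 was the single gene to pass in skeletal muscle (1.31%). None passed with weights in lung (0.235%), spleen (0.205%), testis (0.0664%) or brown adipose tissue (0.0526%).

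The median ratio of the tested genes was 0.13 in lung, -0.20 in spleen, 0.01 in testis, -0.18 in skeletal muscle, -0.01 in heart and -0.07 in brown adipose tissue. Over all rows the medians were -0.01, -0.07, 0.02, -0.16, -0.02 and -0.07 in the same order. In 14 of the 94 pairs every measured array had the same sign, 6 above and 8 below 0. That is 14.9%, against 17.7% of all tested rows. In the same way, the means of the Cy5 and the Cy3 arrays had opposite signs in 47 pairs (50.0%, against 52.4% of all rows). Averaged over the 6 organs, none of the 10 genes tested in every organ passed (limma, all rows 0%), none had an unadjusted p under 0.05 (all rows 5.71%), and their mean ratios ran from -0.40 for Ccr7 to 0.20 for Ccl1.

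**Figure D2:**
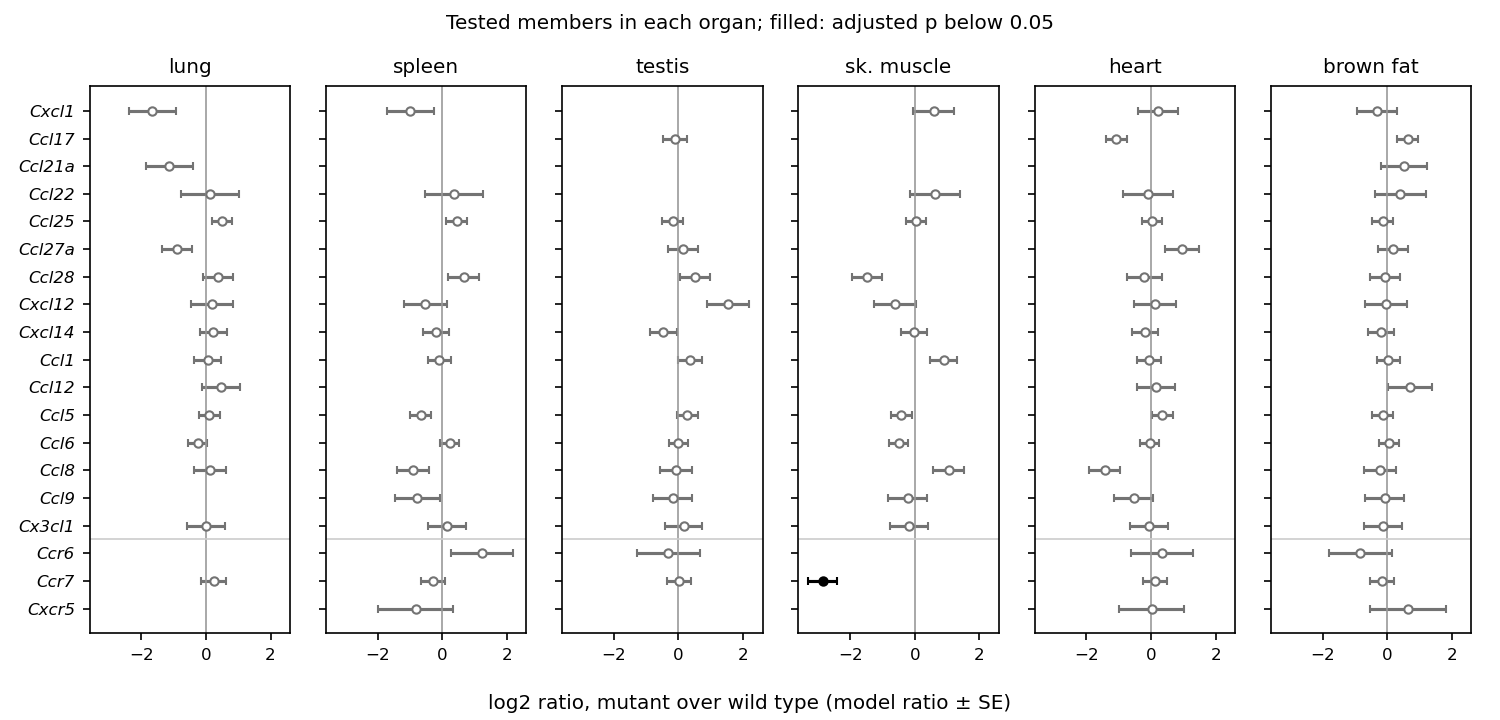
Model log2 ratio of mutant over wild type (horizontal axis) with its standard error for each tested gene (rows) in each organ (panels), where the model is fitted over all 24 arrays with a term for the dye. The filled point is the one pair with an adjusted p below 0.05, Ccr7 in skeletal muscle at -2.85, and the open points did not pass.

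Ccr7, the receptor for Ccl19 and Ccl21 on naive T cells and mature dendritic cells, was lower in the skeletal muscle of the mutant pool. Its ratios there were -3.26 on replicate 1 and -4.72 on replicate 2, both in Cy5, and -0.74 on replicate 3, in Cy3. Replicate 4 had no value, so the opposite dye orientation rests on 1 array. All 3 measured arrays lay below 0, and also below their array medians of -0.46, -0.81 and 0.01. The model gave -2.85 ± 0.44 (SE, n = 3 arrays), 7.19-fold lower in the mutant pool (limma adjusted p = 0.000643). Of all rows in skeletal muscle, 2.23% passed in this direction. With a dye term for each organ in place of 1 shared term, the ratio was -2.36. Relative to the array medians the ratio was -2.44, and after scaling the arrays to a common spread as well it was -1.50 (limma adjusted p = 0.0364). Fitted on the skeletal muscle arrays alone it was -2.36 and did not pass (limma adjusted p = 0.549). Without replicate 3 the gene could not be tested, and without replicate 2 its ratio was -2.0005 (limma adjusted p = 0.0432).

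In the other organs every measured Ccr7 ratio lay between -0.91 and 0.44. In lung the 4 arrays read -0.03, 0.14, 0.42 and 0.44, in spleen 0.07, 0.08, -0.36 and -0.91, and in testis 0.12, 0.12, -0.12 and -0.04. In heart they read -0.12, 0.12, 0.17 and 0.32, and in brown adipose tissue -0.38, -0.14, 0.17 and -0.31. None of these 20 arrays overlapped with replicates 1 and 2 of skeletal muscle, whereas replicate 3 of skeletal muscle, at -0.74, lay above the lowest spleen array. How many of all rows separate in this way was not counted. The model ratios were 0.24 in lung, 0.12 in heart, 0.02 in testis, -0.16 in brown adipose tissue and -0.28 in spleen, each ± 0.38 (SE), so neighbours in this order did not differ beyond their errors. The highest and lowest organ were 3.09 apart.

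The difference between organs was itself tested. Ccr7 was the 1 gene of the 10 tested in every organ that passed limma's F test between organs (adjusted p = 0.0146), a test that 2.24% of all rows passed. With array weights its limma adjusted p was 0.00965, where 2.46% of all rows passed. The adjusted p was 0.18 after centring and scaling the arrays, 0.298 without replicate 1 of every organ, 0.283 without replicate 2 and 0.0811 without replicate 4, so in each of these the call was lost. Without replicate 3 the gene was not testable in skeletal muscle. In comparisons of 1 organ with another, skeletal muscle was lower than each of the other 5. These comparisons were chosen after seeing the data, and each was adjusted over its own rows only. All 5 use the same 3 skeletal muscle arrays, so they are not independent of each other. The differences ran from 2.57 ± 0.56 against spleen (limma adjusted p = 0.0185, all rows 2.74%) to 3.09 ± 0.56 against lung (limma adjusted p = 0.00631, all rows 2.2%). Against testis the limma adjusted p was 0.0125 (all rows 1.79%), against heart 0.0151 (0.871%) and against brown adipose tissue 0.0249 (1.16%).

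Marker genes of cells that carry Ccr7, or that lie beside them in tissue, were set next to it, and none of those tested in skeletal muscle was called. Of 17 T cell markers 6 were tested there, with a median ratio of 0.07 and array medians of -0.48, -0.99, 0.56 and 0.39 on replicates 1 to 4. The 3 tested of 11 B cell markers had array medians of -1.49, -2.32, 0.52 and 2.20, and the 3 tested of 8 dendritic cell markers had 0.56, -1.40, -0.41 and 0.58. The 8 tested of 18 macrophage markers had 0.16, -2.76, 0.21 and 0.45. The 5 tested of 8 lymphatic and lymph node stroma markers had a median ratio of -0.70, from -1.06 for Madcam1 to 0.92 for Prox1, with array medians of -0.84, -0.78 and -0.50 on the 3 arrays that measured Ccr7 and 1.51 on replicate 4. The 1 tested NK cell marker had a ratio of -1.06 and read 0.12, -2.35 and -1.18 on those 3 arrays. The lists of T cells, B cells, dendritic cells and macrophages and the NK cell marker were lowest on replicate 2, which also held the lowest Ccr7 value and the lowest median over all rows. The part of these cells in the Ccr7 ratio was not tested.

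**Figure D3:**
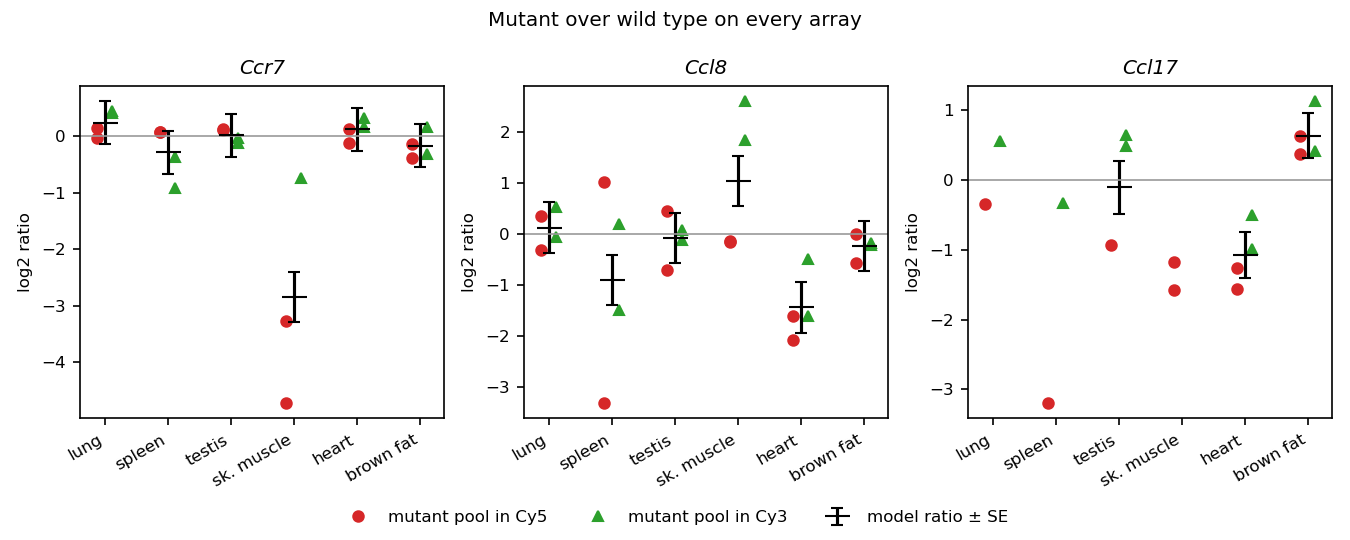
Log2 ratios of mutant over wild type of Ccr7, Ccl8 and Ccl17 (panels) in each organ, with red circles where the mutant pool was in Cy5, green triangles where it was in Cy3, and black bars for the model ratio ± SE where the gene was tested. The 3 skeletal muscle arrays of Ccr7 lie at -4.72 to -0.74, and all 4 heart arrays of Ccl8 (-2.07 to -0.48) and Ccl17 (-1.56 to -0.50) lie below 0.

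The other receptors gave little. Ccr6, the receptor for Ccl20 on Th17 cells, B cells and dendritic cells, was measured on 15 of 24 arrays and tested in 4 organs. In brown adipose tissue its 3 values of -0.39, -0.53 and -1.23 were all below 0, with a model ratio of -0.83 ± 0.97. Its single arrays elsewhere ran from -3.03 in lung to 4.16 in spleen, so it had no steady direction. Cxcr5, the receptor for Cxcl13 that brings B cells and follicular helper T cells into follicles, had values on 14 arrays and was tested in 3 organs. Its brown adipose tissue arrays read 0.15, 0.58 and 0.87, with a model ratio of 0.64 ± 1.17. Its other values ran from -4.98 in testis to 1.39 in spleen.

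Both genes of a ligand and receptor pair could be tested only for Ccl21a and Ccr7. In lung the model ratio of Ccl21a was -1.13 ± 0.72 and that of Ccr7 0.24 ± 0.38. In brown adipose tissue they were 0.52 ± 0.72 and -0.16 ± 0.38. No ratio of the pair passed in these organs. In skeletal muscle, where Ccr7 fell, Ccl21a had values on 2 arrays, -4.33 on a Cy5 array and 3.85 on a Cy3 array, and was not tested.

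In heart, Ccl8 and Ccl17 lay below 0 on all 4 arrays. Ccl8, an inflammatory chemokine (MCP-2) made by macrophages, read -1.60, -2.07, -0.48 and -1.60 on replicates 1 to 4. The model ratio was -1.44 ± 0.49 (SE, n = 4 arrays), 2.71-fold lower, with an unadjusted p of 0.00841 by limma that did not pass after adjustment (1.0). With array weights the ratio was -1.41 ± 0.23 (limma adjusted p = 0.0141; 0.188% of all heart rows passed in this direction). With array weights and without replicate 2, the array with the skeletal muscle label, it was -1.30 (limma adjusted p = 0.0335), and without that array and without weights it was -1.34 and did not pass (1.0). The heart arrays were among those with the smallest spread, and the weights favour them.

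Ccl17, the ligand of Ccr4 made by dendritic cells and by some macrophages, read -1.26, -1.56, -0.99 and -0.50 in heart. All 4 values lay below 0, as for Ccl8, and the array nearest to 0 was another one (replicate 4 for Ccl17, replicate 3 for Ccl8). The model ratio was -1.08 ± 0.33, 2.11-fold lower, with an unadjusted p of 0.00596 by limma (adjusted 1.0). With array weights it passed (limma adjusted p = 0.0367), but no longer when replicate 2 was left out as well (-1.02, adjusted p = 0.0838). Without that array and without weights the ratio was -1.09. Ccl17 had the opposite sign in brown adipose tissue, with 0.63, 0.37, 0.42 and 1.13 on the 4 arrays and a model ratio of 0.64 ± 0.33. The values of both organs did not overlap, though the share of all rows that separate so was not counted. The difference between the organs was -1.71 ± 0.45. Adjusted over the rows tested in both organs it did not pass (limma adjusted p = 1.0, unadjusted p = 0.00211, 0% of all rows called). In lung 1 further Ccl17 value lay in the separate mode of very large ratios described under the processing, and was not used.

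The 6 macrophage markers tested of 18 had a median of 0.19 in heart, from -0.53 for Aif1 to 0.44 for Cd68, with array medians between 0.12 and 0.46. The 3 tested of 8 dendritic cell markers had a median of 0.31, with array medians from -0.09 to 0.85. No gene of either list was called, without array weights (0% of all heart rows) or with them (0.296%). At these shares the lack of a call says little about the cells. Their part in the Ccl8 and Ccl17 ratios was not tested.

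Beside Ccl8 and Ccl17, Ccl9 (MIP-1 gamma, a ligand of Ccr1) lay below 0 on every heart array, at -0.69, -0.29, -0.84 and -0.33, with a model ratio of -0.54 ± 0.60 (-0.62 without replicate 2). Ccl27a, the skin chemokine that binds Ccr10, lay above 0 on the 3 heart arrays that measured it (replicates 1, 3 and 4), at 0.50, 1.03 and 1.29, with a ratio of 0.95 ± 0.53. Neither had an unadjusted p under 0.05. Ccl27a, like Ccl21a, belongs to a group of near-identical gene copies in the mouse, so its probe may read more than 1 gene.

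Ccl28, a mucosal chemokine that binds Ccr3 and Ccr10, is described here after its values were seen. In skeletal muscle it read -1.25, -3.55 and -1.23 on replicates 1 to 3 and 0.14 on replicate 4. Relative to the array medians all 4 values lay below 0, at -0.80, -2.74, -1.24 and -0.55. The model ratio was -1.48 ± 0.47, 2.78-fold lower, and did not pass (limma adjusted p = 0.0711, unadjusted p = 0.00509). Without replicate 4 of every organ the ratio was -2.01 and did pass (limma adjusted p = 0.0449). In testis Ccl28 lay above 0 on all 4 arrays, at 0.14, 0.92, 0.60 and 0.44 (0.52 ± 0.47). Its difference between organs did not pass (limma F test, adjusted p = 0.325).

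Ccl25, the thymus and gut chemokine that binds Ccr9, lay above 0 on all 4 lung arrays, at 0.26, 1.01, 0.61 and 0.12, with a model ratio of 0.50 ± 0.32. Ccl22, the other ligand of Ccr4, lay above 0 on all 4 skeletal muscle arrays, at 0.12, 0.04, 0.41 and 1.92, with a ratio of 0.62 ± 0.78. In spleen its 3 arrays read -2.02, -1.82 and 5.36, the last on replicate 4. With that replicate number left out of every organ, the spleen ratio of Ccl22 was -1.92 ± 0.38 and passed (limma adjusted p = 0.0364), whereas with it the ratio was 0.36 ± 0.91.

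Cxcl12, the stromal ligand of Cxcr4 that retains stem cells in bone marrow, was the gene with most probes, 3 in number, and is also described after its values were seen. In testis it read 0.98, 3.88, 1.42 and -0.12, with a model ratio of 1.54 ± 0.66 that did not pass after adjustment (limma adjusted p = 1.0, unadjusted p = 0.0292). The probes did not move together: on testis replicate 3 one read -0.40 and another 3.23, and the third lay in the separate mode of very large ratios. In skeletal muscle Cxcl12 ran from -3.68 to 1.27, and both ends came from the same single probe. In brown adipose tissue the mean over probes stayed between -0.14 and 0.05. The probes differed there too: on replicate 1 they read 0.725, -1.497 and 0.918. Cxcl14, a chemokine made by epithelia, with 2 probes, had model ratios between -0.46 (testis) and 0.23 (lung), each ± 0.41.

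The inflammatory CC ligands had small ratios in most organs. Ccl5 (RANTES), made by T cells and NK cells, lay below 0 on all 4 spleen arrays, at -1.01, -0.52, -0.54 and -0.60. Their SD was 0.23, and the model ratio was -0.67 ± 0.32, 1.59-fold lower (limma adjusted p = 0.327, unadjusted p = 0.051). The same spleen pools differed in genes of the exocrine pancreas, a neighbouring tissue, of which 10 of 12 tested were called lower. Of all spleen rows 1.53% were called in either direction. With array weights 8 of these pancreas genes were called (all rows 0.205%), and their ratios without weights ran from -6.68 to 1.89. All 6 tested macrophage markers lay below 0 there too, from -0.67 to -0.20, with array medians of -0.24, -0.30, -0.77 and -0.40, and none was called. The 8 tested T cell markers had a median of -0.10, with array medians from -0.07 to 0.46. Whether these differences bear on Ccl5 was not tested. In lung Ccl5 was between -0.02 and 0.23 on all 4 arrays.

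Ccl6, a macrophage chemokine that binds Ccr1, lay below 0 on all 4 lung arrays, at -0.14, -0.55, -0.30 and -0.02 (-0.25 ± 0.30). Ccl8 lay below 0 on all 4 brown adipose tissue arrays as well, at -0.57, -0.005, -0.18 and -0.20 (-0.24 ± 0.49). In skeletal muscle its ratio was 1.05 ± 0.49, with the arrays split by dye: -0.15 and -0.14 on Cy5 arrays, and 1.86 and 2.62 on Cy3 arrays. Relative to the array medians these values were 0.307 and 0.675 on Cy5 arrays, and 1.848 and 1.929 on Cy3 arrays. The split in sign was thus not seen against the array medians. Ccl1, the ligand of Ccr8, had a skeletal muscle ratio of 0.89 ± 0.42 that rested on replicate 2 at 2.34, with the other arrays at -0.20 and 0.46. Both had an unadjusted p just under 0.05 by limma, 0.0463 for Ccl8 and 0.0474 for Ccl1. Ccl12 (MCP-5), a ligand of Ccr2, was tested in 3 organs, with ratios of 0.45 ± 0.59 in lung, 0.16 ± 0.59 in heart and 0.70 ± 0.69 in brown adipose tissue. Its 2 skeletal muscle values, both from Cy5 arrays and singled out after they were seen, were -2.35 and -5.01. With no Cy3 value they could not be tested there.

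**Figure D4:**
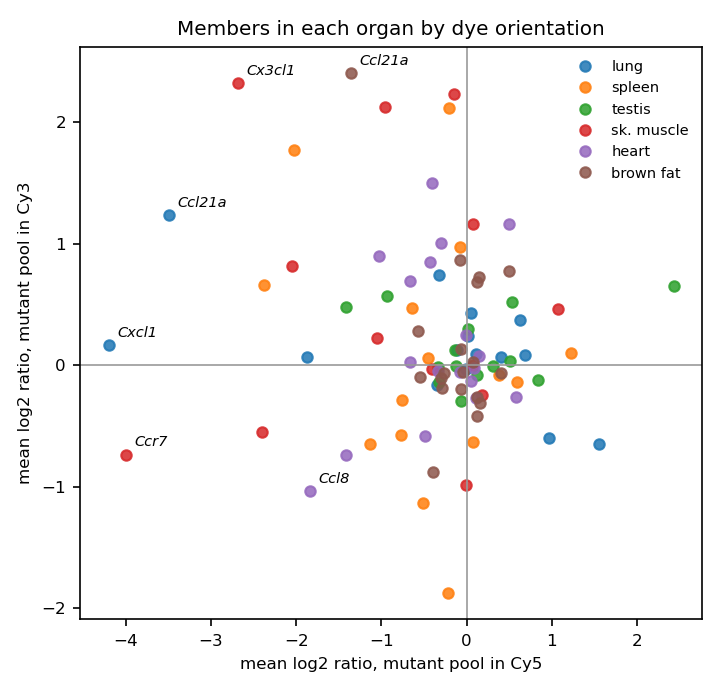
Mean log2 ratio over Cy5 arrays (mutant pool in Cy5, horizontal axis) against the mean over Cy3 arrays (mutant pool in Cy3, vertical axis) for the 94 tested pairs of gene and organ, coloured by organ. A difference that did not depend on the dye would lie on the diagonal through 0. Ccr7 in skeletal muscle and Ccl8 in heart lie in the lower left, and the labelled Ccl21a, Cxcl1 and Cx3cl1 points lie in the upper left, below 0 in one dye and above it in the other.

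Several chemokines had opposite mean signs on Cy5 and Cy3 arrays (50.0% of the tested pairs, against 52.4% of all rows), although no dye term passed. The dye term of the model is the ratio on Cy5 arrays minus that on Cy3 arrays. It passed for none of the 10 genes tested in every organ (limma, 0.278% of all rows; 2 of the 10 had an unadjusted p under 0.05, Cx3cl1 and Ccl5, against 14.8% of all rows). With array weights it passed for none of the 10 (1.71%). Over the rows tested in at least 1 organ it passed for none of the 19 either (0.565% of all rows), with an unadjusted p under 0.05 for 4 (all rows 13.3%). The largest dye term was that of Ccl21a, the lymph node chemokine that draws Ccr7-bearing cells. It lay below 0 on 6 of 6 Cy5 arrays and above 0 on 7 of 8 Cy3 arrays, with a dye term of -4.26 ± 0.83 (limma adjusted p = 0.0519). In lung it read -2.86 and -4.12 in Cy5 and 0.36 and 2.11 in Cy3, and in brown adipose tissue -1.25 and -1.47 against 2.43 and 2.38. The values of each dye did not overlap in either organ, with 2 arrays of each dye. The share of all rows that separate so was not counted.

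Cxcl1 (KC), the ELR chemokine that attracts neutrophils through Cxcr2, lay below 0 on 8 of 9 Cy5 arrays and above 0 on 8 of 11 Cy3 arrays. Its dye term was -2.25 ± 0.60 (limma adjusted p = 0.116). Its lung ratio was -1.66 ± 0.73 (unadjusted p = 0.0365 by limma), from single arrays at -4.20, -1.69 and 2.02, which run in both directions. Ccl17 had a dye term of -1.04 ± 0.34 (limma adjusted p = 0.212), although its heart and brown adipose tissue values kept 1 sign each.

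Cx3cl1 (fractalkine), the membrane-bound chemokine of endothelium and neurons, showed the split most clearly in skeletal muscle. Its arrays there read -2.88 and -2.49 on Cy5 arrays, and 1.65 and 2.99 on Cy3 arrays. The model ratio between these opposite signs was -0.18 ± 0.59. In heart it read -1.62, -0.43, 0.56 and 1.24 in the same order, and in the other 4 organs it stayed between -0.95 and 0.79. If the deposited ratios of the Cy3 arrays are turned in sign, its skeletal muscle ratio would be -2.50 ± 0.30 (limma adjusted p = 0.000284, where 7.54% of all rows pass), and its difference between organs would pass as well (F test, adjusted p = 0.0175). Ccr7 in skeletal muscle would be -2.32 (limma adjusted p = 0.0182) and Ccl8 in heart -0.40 (adjusted p = 1.0). The heart ratio of Ccl17 would be -0.33 (adjusted p = 1.0), and the skeletal muscle ratio of Ccl8 would be -1.19. As deposited, Nr4a1 ran from -2.55 to -0.16 on Cy5 arrays and from -1.19 to 0.08 on Cy3 arrays, and turning the Cy3 arrays would give it opposite signs in the dyes. The same holds for the exocrine pancreas genes of spleen, with array medians of -4.44 and -5.08 in Cy5 and of -4.35 and -4.65 in Cy3. These values favour the ratios as deposited.

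**Figure D5:**
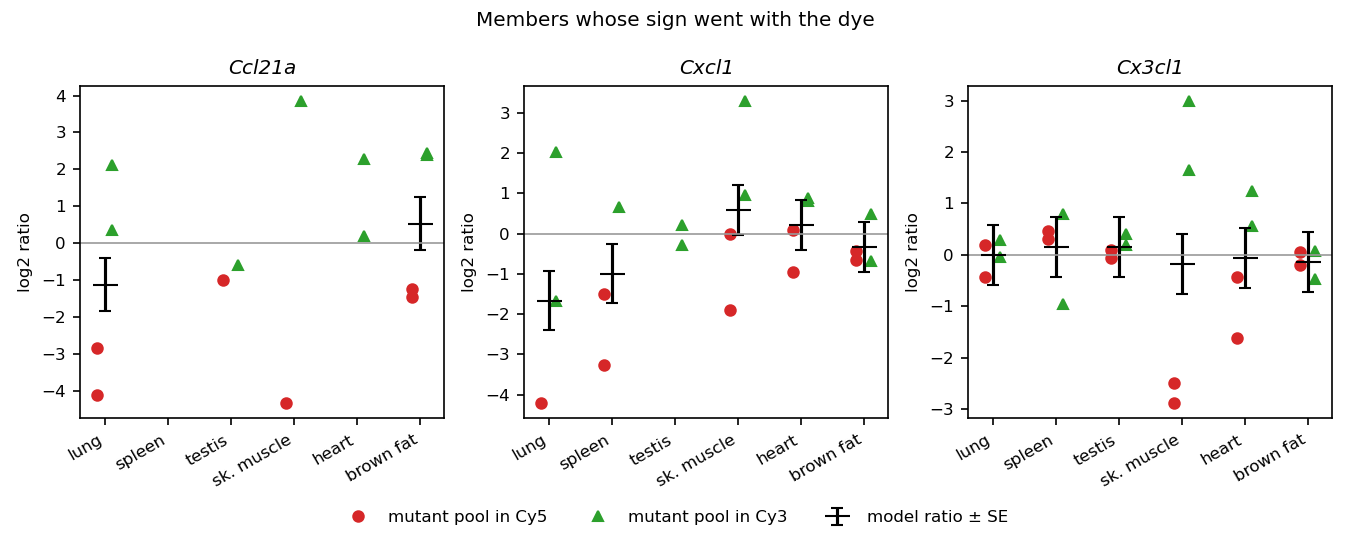
Log2 ratios of mutant over wild type of Ccl21a, Cxcl1 and Cx3cl1 (panels) in each organ, with red circles where the mutant pool was in Cy5, green triangles where it was in Cy3, and black bars for the model ratio ± SE where the gene was tested. Red and green lie on opposite sides of 0 for Ccl21a in lung, skeletal muscle and brown adipose tissue. They do so too for Cxcl1 in spleen and skeletal muscle, and for Cx3cl1 in skeletal muscle and heart.

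Genes around the family showed no call in the unweighted model. Of 16 listed relatives outside the naming rule (atypical receptors and platelet chemokines), 6 were on the arrays. None passed in 30 tests by limma (1.09% over all rows of the 6 organs), and 5 had an unadjusted p under 0.05, against 7.47% of all rows. Of these 5, 3 were in spleen, where 15.4% of all rows had such a p. One was Ackr4, the atypical receptor that scavenges Ccl19, Ccl21 and Ccl25, in skeletal muscle (20.2%), at -2.04 ± 0.73 (limma adjusted p = 0.136). Of 45 listed genes of signalling downstream of chemokine receptors (among them G protein subunits and kinases), 29 were on the arrays. None passed in 156 tests and 3 had an unadjusted p under 0.05, among them Ptk2b, the kinase Pyk2, in skeletal muscle (0.70 ± 0.23, limma adjusted p = 0.089). Of 28 listed cytokines and NF-kB genes that induce chemokines, 13 were on the arrays. None passed in 62 tests and 4 had an unadjusted p under 0.05, 2 of them NF-kB inhibitors in spleen, among 10 tested there. With array weights 1 gene of these lists passed, the kinase Jak2 in heart (1.91 ± 0.57 without weights, limma adjusted p = 0.0271 with them). These 3 genes were singled out after their values were seen. The median ratios of the lists per organ lay between -0.07 and 0.53, -0.03 and 0.12, and -0.19 and 0.16, respectively.

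Promoters of the family were searched for the element that Nur77 binds and for an NF-kB element, since both are named above as regulators. RefSeq promoter windows (GRCm38.p6, 250 bases before to 50 after each start) were at hand for 16 of the 19 genes, 20 windows in all; Ccr7, Ccl5 and Cxcr5 had none. The NBRE, AAAGGTCA or its reverse complement TGACCTTT, was in 1.51% of the 32851 windows and in the window of 1 gene of the family, Ccl6. The NF-kB element, searched as GGG, any 2 bases and TTTCC on both strands, was in 1.63% of windows and in those of 2 genes, Cxcl1 (at 2 places) and Ccl9. The 90 bases from -105 to -16 relative to the start are shown for these 3 genes, 5′ to 3′ along the gene, with the matched letters in capitals: Ccl6 on the minus strand at chr11:83593103-83593192, Cxcl1 on the plus strand at chr5:90891140-90891229 and Ccl9 on the minus strand at chr11:83578652-83578741.
Ccl6: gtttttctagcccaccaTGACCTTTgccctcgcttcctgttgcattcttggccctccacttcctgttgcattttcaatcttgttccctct
Cxcl1: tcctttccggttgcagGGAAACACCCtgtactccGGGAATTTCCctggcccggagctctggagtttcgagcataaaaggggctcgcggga
Ccl9: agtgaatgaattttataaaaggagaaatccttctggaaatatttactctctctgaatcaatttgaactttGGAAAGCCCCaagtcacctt

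The NBRE letters of Ccl6 lie at -88 to -81, in reverse. The NF-kB letters of Cxcl1 lie at -89 to -80, in reverse, and at -71 to -62, and those of Ccl9 at -35 to -26, in reverse. No gene of these 3 passed in any organ. A match says only that the letters are there.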

How the data were processed

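The deposited log2 ratios, 1 per probe and array, were made by the authors from two-colour cDNA arrays. Total RNA (20 µg) was labelled indirectly, per the labels' protocols. Their scale, centring, background correction, filter and software were not stated in the sources used here. Of 392774 values, 4874 (1.24%) had a size of 15.7 or more against at most 9.94 for the rest. This separate mode had the sign of Cy5 over Cy3 throughout, and sizes above 12 were treated as missing, among them 7 values of these genes (5 of Cxcl12, 1 each of Ccl17 and Ccl9).

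Of 20205 probes, 13891 had 1 symbol in the platform annotation, 5 several and 6309 none. Probes of 1 symbol were averaged, giving 16148 rows. All 19 genes were found by Entrez number in the RefSeq table. One limma model (3.58.1, lmFit and eBayes, R 4.3.3) over 24 arrays held 6 organ coefficients and a dye term, with Benjamini-Hochberg adjustment over all rows of a comparison. Standard errors are those of the model, which held 1 spread per gene over all 24 arrays. The number of arrays limits the precision. The procedure was tested on simulated data. The simulation gave each row the same spread in every organ, unlike these arrays, so it did not test the procedure under unequal spread. Replicate numbers did not pair arrays across organs: over 3630 complete rows, arrays of the same number correlated at a median r of 0.04 (-0.03 to 0.27), and arrays of the same dye and another number also at 0.04.

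Genes named by rule are those that passed, and in each organ the 3 highest and 3 lowest tested ratios with 1 sign on every measured array, plus ligand and receptor pairs tested together. Others are described after their values were seen. The genes, lists and rule were chosen with earlier results of these data known. Alternatives tried were array weights, centring, scaling, dye handling, fitting an organ alone, a replicate block, the very large values, missing values, probe summary, sign, and leaving out arrays.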

Additional observations from a re-analysis of the deposited data

Results flagged for a closer look

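Ccr7 differed between organs by limma's F test (adjusted p = 0.0146, organ ratios 3.09 apart on the log2 scale), with the skeletal muscle arrays at -3.26, -4.72 and -0.74 and every other organ between -0.91 and 0.44. Of the 21 named pairs of gene and organ, the 17 with 4 arrays were checked by Dixon's criterion, so Ccr7 in skeletal muscle was not. None was flagged for 1 array far from the other 3, but with 4 arrays the criterion flags only extreme cases. Ccl22 in skeletal muscle, at 0.12, 0.04, 0.41 and 1.92, was not flagged.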

How the results depend on the processing

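Most results kept their direction and their side of the threshold: 135 alternative counts of genes past the test stayed the same and 14 moved, and of the alternative values of single genes 337 kept direction and call, 17 changed sign, 6 lost the call and 3 gained it. In the main model the only calls were those of Ccr7, in skeletal muscle and between organs, and the 6 lost calls were its own. The other values were not called at the start and had no call to lose, so their staying the same says little about stability. Some counts fell because a gene lacking values could no longer be tested, and otherwise the cause of a change was not tested. The count in skeletal muscle (1) was 0 with complete rows only, where Ccr7, without a value on replicate 4, was not tested. It was 0 with the organ fitted alone (Ccr7 then at -2.36) and 2 with the sign turned on arrays whose mutant pool was in Cy3. With single replicate numbers left out it was 0 to 2, and without replicate 3 Ccr7 was not testable. In spleen it was 0 to 1 with single replicate numbers left out, and in heart 2 with array weights (Ccl8 -1.41, Ccl17 -1.06) and 1 with array weights and without heart replicate 2 (Ccl8 -1.30). Between organs it was 0 after centring and scaling, 0 with complete rows only, where Ccr7 was again not tested, and 0 to 1 with arrays left out. In the test between organs Ccr7 also failed with the sign turned (organ ratios 2.67 apart, limma adjusted p = 0.302).

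The median of the genes in lung was -0.094 with the sign turned. In testis it ran from -0.007 to 0.10 with replicates left out. In brown adipose tissue it was 0.0152 with array weights, -0.001 with arrays centred, 0.0199 with arrays centred and scaled, 0.0186 with weights and without heart replicate 2, and -0.18 to 0.0184 with replicates left out. With the sign turned, Ccr7 was -0.19 in lung, 0.36 in spleen and -0.12 in heart, Ccl22 -0.54 in skeletal muscle, Ccl27a -0.67 and Ccl9 0.045 in heart. In brown adipose tissue Ccl17 was then -0.14, Ccl21a -1.88, Ccr6 0.37 and Cxcr5 -0.57. Ccr7 in testis was -0.14 with array weights, -0.014 with arrays centred, -0.047 with arrays centred and scaled, -0.14 with weights and without heart replicate 2, and -0.088 to 0.14 with replicates left out. In spleen it ran from -0.47 to 0.028 with replicates left out.

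With the replicate number as a block, a pairing the arrays do not bear out, Ccr7 in skeletal muscle was -2.94 (limma adjusted p = 0.00119) and no count of genes past the test changed. The array weights without heart replicate 2, the dye term over more rows and the comparisons of 1 organ with another were chosen after seeing the data. The median residual SD was highest in spleen (0.94) and skeletal muscle (0.91) and lowest in heart (0.40) and brown adipose tissue (0.41). The model held 1 spread per gene over all arrays, so its errors did not follow these differences between organs. Without array weights 5.59% of all rows passed in skeletal muscle and 1.53% in spleen, against 0% in heart and brown adipose tissue. With weights the shares were 1.31%, 0.205%, 0.296% and 0.0526% in that order. How far the unequal spread shaped these shares was not tested.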
